A study of Mus musculus with 3 samples.

Results

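The regions described here are peaks of TBX5 binding that lie inside protein-coding genes of moderate size in the fetal mouse lung. A peak was a member where its summit, the position of its highest signal, fell inside a RefSeq protein-coding gene, where every such gene around it was under 200 kb long, and where the summit was over 1 kb from every protein-coding gene end. The deposited list held 28381 peaks, and 6610 of them (23.3%, exact 95% binomial interval 22.8 to 23.8) met the rule. Of the rest, 5143 lay inside genes of 200 kb or longer, 11647 lay between genes and 4981 lay within 1 kb of a gene end. TBX5 chromatin immunoprecipitation and sequencing (ChIP-seq) had been done on untreated whole lungs of CD-1 mouse embryos, an outbred stock, at stage E14.5. Antibody to TBX5 gave 2 ChIP libraries, with 1 whole lung used per replicate, and input chromatin gave 1 library. The titles and the protocol name lung throughout, yet the source field of the second ChIP library and of the input reads heart. Since 1 list of peaks stands for all 3 libraries, values could not be given for any single library, and neither depth nor a result without the libraries in doubt could be had. All intervals below cover counting error only, and no difference was tested.

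TBX5 is a T-box transcription factor. T-box proteins bind DNA at a short element whose core reads GGTGTGA. TBX5 is known in heart, forelimb and lung mesenchyme. In lung mesenchyme it acts with its relative TBX4 in the outgrowth of lung buds and in the hedgehog, Wnt and FGF programs. Many enhancers lie inside introns of the gene they regulate or of a neighbour, so a peak inside a gene marks a bound place and not the target of the binding. Whole lung holds epithelium, endothelium, mesothelium, blood cells and nerves beside the mesenchyme, and a peak list from whole tissue does not tell in which of these cells TBX5 was bound.

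Sequence could be shown where a member fell in the short window, 250 bases before to 50 after a start, that RefSeq start tables hold for GRCm38.p6, to which build mm10 corresponds. Such starts are inner starts, alternative first exons that lie over 1 kb inside the outermost ends of a gene. Of 32619 windows, 332 held the summit of a member, and these belonged to 302 genes and 296 members. Printed below are the 250 bases upstream of 6 inner starts, read 5′ to 3′ on the strand of the gene, with the T-box core GGTGTGA, or TCACACC where it reads on the other strand, in capitals. The first 3 carry high members and have no such letters, and the last 3 have them. All 6 genes were chosen after their values were seen.
Nr1h3, chr2:91195036-91195285, minus strand: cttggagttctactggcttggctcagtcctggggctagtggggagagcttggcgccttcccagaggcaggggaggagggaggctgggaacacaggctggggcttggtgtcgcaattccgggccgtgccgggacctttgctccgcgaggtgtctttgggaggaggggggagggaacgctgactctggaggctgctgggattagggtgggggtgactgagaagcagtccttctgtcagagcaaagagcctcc
Tlk2, chr11:105181277-105181526, plus strand: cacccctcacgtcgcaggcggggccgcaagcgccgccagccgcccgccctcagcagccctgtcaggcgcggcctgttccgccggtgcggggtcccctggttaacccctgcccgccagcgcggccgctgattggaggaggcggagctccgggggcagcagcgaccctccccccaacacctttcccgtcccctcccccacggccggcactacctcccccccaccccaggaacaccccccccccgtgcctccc
Zfp787, chr7:6155966-6156215, minus strand: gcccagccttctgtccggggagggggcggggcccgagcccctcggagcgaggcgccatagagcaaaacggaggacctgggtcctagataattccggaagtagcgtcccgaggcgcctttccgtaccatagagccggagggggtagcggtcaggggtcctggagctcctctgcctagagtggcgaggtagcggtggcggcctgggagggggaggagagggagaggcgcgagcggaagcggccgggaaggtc
Cntrl, chr2:35131966-35132215, plus strand: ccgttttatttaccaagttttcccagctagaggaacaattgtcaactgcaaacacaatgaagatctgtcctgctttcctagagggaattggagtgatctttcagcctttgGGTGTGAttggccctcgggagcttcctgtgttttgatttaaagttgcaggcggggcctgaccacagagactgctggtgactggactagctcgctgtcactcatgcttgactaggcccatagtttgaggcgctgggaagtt
Cd47, chr16:49855404-49855653, plus strand: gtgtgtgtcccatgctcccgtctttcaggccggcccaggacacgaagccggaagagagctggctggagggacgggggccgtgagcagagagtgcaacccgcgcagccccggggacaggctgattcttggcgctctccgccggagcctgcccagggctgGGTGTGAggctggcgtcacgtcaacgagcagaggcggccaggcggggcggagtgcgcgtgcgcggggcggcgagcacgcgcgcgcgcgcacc
Ptbp2, chr3:119783389-119783638, minus strand: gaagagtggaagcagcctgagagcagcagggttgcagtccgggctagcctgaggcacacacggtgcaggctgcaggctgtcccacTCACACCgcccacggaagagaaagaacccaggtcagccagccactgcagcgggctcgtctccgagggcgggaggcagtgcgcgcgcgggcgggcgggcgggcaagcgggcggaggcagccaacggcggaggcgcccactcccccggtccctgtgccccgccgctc
Nr1h3 encodes the oxysterol receptor LXR alpha, and its member reached a 27.9-fold enrichment with a summit 95 bp before the start shown. Tlk2, a chromatin assembly kinase gene, held a 24.1-fold member 118 bp before its inner start. Zfp787, a zinc finger gene, held a 16.1-fold member 119 bp before its start. G and C made up 63.6%, 76.8% and 69.2% of bases in these 3 upstream stretches. In those of Cntrl, Cd47 and Ptbp2 the share was 49.2%, 73.2% and 72.4%, and no share over all windows stands beside these. In Cntrl, a centrosome gene, the capitals begin 140 bases before the start and the 11.4-fold summit lay 106 bp before it. In Cd47, the gene of the anti-phagocytic surface protein CD47, the capitals begin 92 bases before the start and the 6.39-fold summit lay 25 bp before it. In Ptbp2, a splicing regulator gene, the capitals begin 165 bases before the start, and the 6.39-fold summit lay 16 bp after it.

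The letters GGTGTGA, searched on both strands, stood in 9 of the 332 windows with a member summit (2.71%, 1.25 to 5.08), against 3.98% of all 32619 windows. The longer form AGGTGTGA, each match of which also counts as GGTGTGA, stood in 1 of the 332 (0.301%, 0.00763 to 1.67), against 1.28% of all windows. Among the 28 windows that held a strong member, a term defined below, GGTGTGA stood in 4 (14.3%, 4.03 to 32.7) and AGGTGTGA in 0. Windows of neighbouring starts overlap, and 2 of those 4 belong to the single strong member of Cntrl. Counted by member, GGTGTGA stood in a window of 3 of 24 strong members (12.5%, 2.66 to 32.4) and of 7 of all 296 members (2.36%, 0.956 to 4.81), and both intervals include the 3.98% of all windows. The sequence of members away from these windows was not analysed here.

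Each peak carries a fold enrichment, which is the caller's ratio of ChIP pileup over local background at the summit, and the −log10 of a q-value, by which peaks were ranked. Peaks among the 5000 with the highest −log10 q are called strong, and every one of them had a −log10 q of 21.3 or more. Members were mostly modest peaks with a long upper tail. Their fold had quartiles of 5.07, 6.28 and 9.29 and ran from 1.86 to 86.2. The median of 6.28 (6.21 to 6.45) was above that of gene-end peaks, 5.49, and below those of peaks in genes of 200 kb or longer, 6.67, and of peaks between genes, 6.60. Strong peaks made up 1159 of the members, or 17.5% (16.6 to 18.5), beside 17.6% of the whole list. That share was 21.6% inside genes of 200 kb or longer (20.5 to 22.8), 19.9% between genes (19.2 to 20.7) and 8.21% at gene ends (7.46 to 9.01). The 1000 highest peaks of the list included 211 members, or 3.19%, beside 3.52% of the whole list. Enrichment of 10-fold or more was reached by 1381 members, or 20.9%, beside 21.2% of the whole list. Enrichment of 50-fold or more was reached by 16 of the 6610 members. It was reached by 22 of 5143 peaks in genes of 200 kb or longer, 43 of 11647 between genes and 0 of 4981 at gene ends. Members were 288 bp wide at the median and 189 to 1979 bp in range, and 171 of them (2.59%) were 800 bp or wider. That share was 3.03% inside genes of 200 kb or longer, 2.79% between genes and 2.59% at gene ends.

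**Figure D1:**
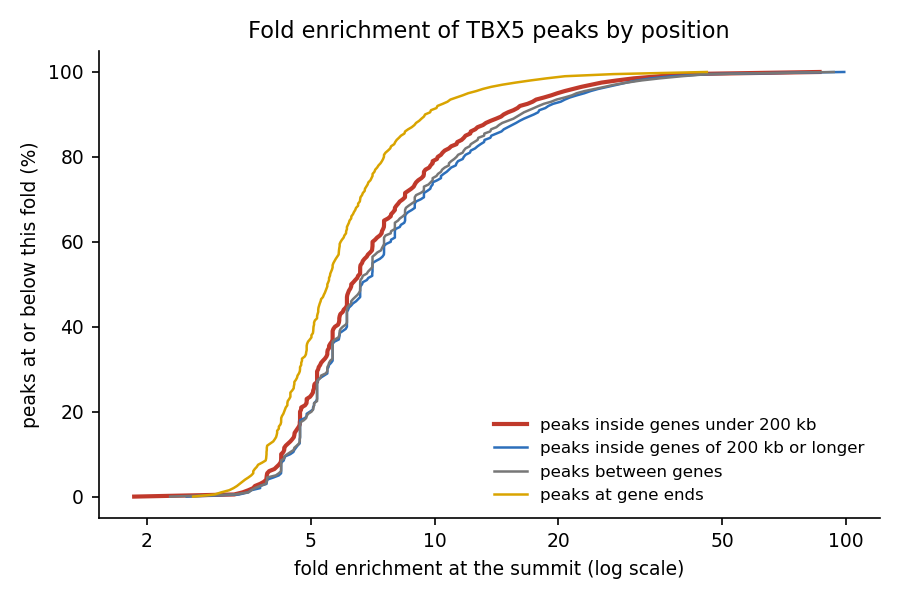
Cumulative share of peaks (%) at or below each fold enrichment at the summit (log axis) for the 4 positions. The curve of members, in red, lies between that of gene-end peaks (median 5.49) and those of peaks inside genes of 200 kb or longer (6.67) and between genes (6.60).

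The sequence in which a summit would be a member, called host interior below, summed to 569.4 Mb and held 11.6 peaks per Mb (exact 95% Poisson interval 11.3 to 11.9). The interior of genes of 200 kb or longer held 12.3 per Mb (12.0 to 12.7), sequence between genes 7.53 (7.39 to 7.66) and gene ends 63.6 (61.8 to 65.4). For strong peaks the densities were 2.04 per Mb in host interior (1.92 to 2.16), 2.67 in genes of 200 kb or longer (2.51 to 2.83), 1.499 between genes (1.44 to 1.56) and 5.22 at gene ends (4.73 to 5.75). Member density was thus above that between genes and below that of longer genes, for all members and for strong ones. On the 19 autosomes it was 11.9 per Mb, and on chromosome X it was 4.95 (4.10 to 5.93, 118 members). Chromosome X was also lower in the other positions, with 2.56 against 12.8 per Mb in genes of 200 kb or longer and 1.499 against 8.05 between genes.

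Values on both sides of each limit of the rule are given once, with no test. The 397 members over 1000 and up to 1500 bp from a gene end had a median fold of 5.70 with 7.81% strong, and the 645 peaks over 500 and up to 1000 bp from an end, just outside, had 5.36 and 6.51%. The 367 members whose longest host measured 180 to 200 kb had a median of 6.34 with 16.9% strong, and the 363 peaks in genes of 200 to 220 kb had 7.06 and 22.9%.

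Member peaks were spread over many genes. Of 21631 protein-coding genes, 18012 were under 200 kb and had host interior, 990 were 200 kb or longer, and 2629 were too short or too crowded to hold a member. Of the 18012 eligible genes, 3305 (18.3%, 17.8 to 18.9) hosted a member and 885 (4.91%, 4.60 to 5.24) a strong one. A single member was found in 1916 hosts, 2 members in 648, 3 in 315, 4 to 9 in 395, and 10 or more in 31. Those 31 hosts held 423 members (6.40%). In all, 4723 members (71.5%, 70.3 to 72.5) shared their host with another member. Only 39 members lay in 2 overlapping hosts.

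Hosts were long, with a median length of 57.6 kb against 19.7 kb for all eligible genes. The share of genes with a member went from 3.85% of genes under 10 kb to 10.6% at 10 to 25 kb, 20.1% at 25 to 50 kb, 36.9% at 50 to 100 kb and 63.0% at 100 to 200 kb. A longer gene offers more sequence to be bound, so densities are given as well. Densities were taken over the host interior of all eligible genes of a class, with or without a member. All members stood at 13.1 per Mb in genes under 10 kb, 9.90 at 10 to 25 kb and 9.92 at 25 to 50 kb. The density was 10.9 at 50 to 100 kb and 13.9 at 100 to 200 kb (13.3 to 14.4). With sequence within 1 kb of listed starts set aside together with its members, 163, 534, 1006, 1584 and 2333 members were left. The 5 values were then 9.81 (8.36 to 11.4), 7.48, 8.56, 9.51 and 12.4 (11.9 to 13.0). These members are fewer in all than the 5893 given below as away from listed starts, so the 2 sets differ. Strong members were denser in each longer class, at 1.14 per Mb (0.695 to 1.76), 1.39, 1.78, 1.96 and 2.60 (2.37 to 2.83), although the intervals of the first 4 neighbours overlapped. The share of members that were strong was 8.70% in the shortest class, 14.0% in the next, and 17.9%, 18.1% and 18.7% in the others, so most of that change lay below 25 kb.

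**Figure D2:**
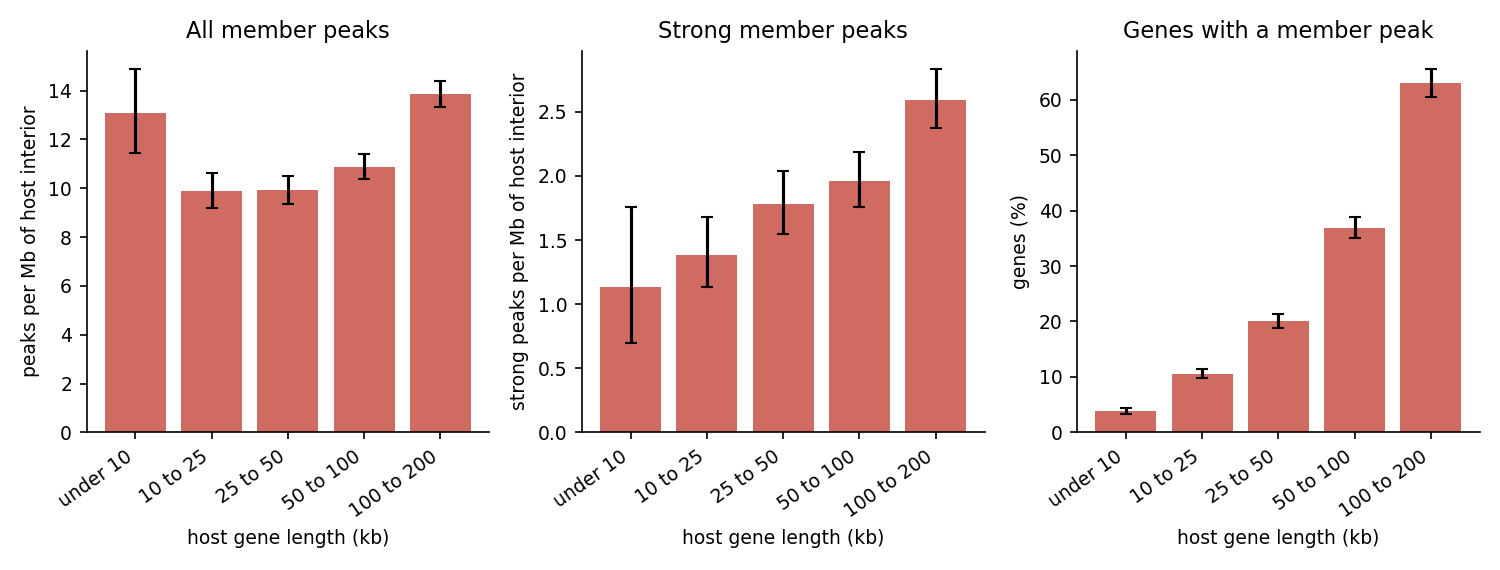
Density of all members (left) and of strong members (middle), in peaks per Mb of host interior of all eligible genes. The right panel gives the share of eligible genes with a member (%). Classes are gene lengths in kb, and error bars are exact 95% intervals for counting error. Strong members go from 1.14 to 2.60 per Mb from the shortest to the longest class, while all members are lowest, at 9.90, in genes of 10 to 25 kb.

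Hosts also had a peak at their own ends more often than eligible genes without a member. A summit within 1 kb of an own end was present in 1081 of 3305 hosts (32.7%, 31.1 to 34.3) and in 3366 of 14707 other eligible genes (22.9%, 22.2 to 23.6). Within length classes the shares were 46.5% against 18.7% under 10 kb, 31.3% against 23.2% at 10 to 25 kb, 29.8% against 26.3% at 25 to 50 kb, 33.9% against 27.8% at 50 to 100 kb and 31.6% against 26.4% at 100 to 200 kb. The gap was widest in the shortest genes, and the intervals overlapped at 25 to 50 kb and at 100 to 200 kb.

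Many members had another peak nearby. Another summit of the list stood within 2 kb of 28.9% of members, within 10 kb of 54.5% and within 50 kb of 85.6%, and the median gap to the nearest summit was 7.96 kb. The median gap was 9.02 kb for peaks inside genes of 200 kb or longer and 10.4 kb for peaks between genes. Gene-end peaks had a longer median gap, 14.4 kb, although 31.3% of them had another summit within 2 kb.

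Position along the host could be read for 5090 members with a single host of known strand. The densities by distance also include members that lay in 2 hosts, counted for each host of known strand. Near the gene start members were dense and weak. At 1 to 2 kb from the start there were 31.0 members per Mb (28.1 to 34.1, 424 members), of which 6.37% were strong. The density was 12.8 at 2 to 5 kb, 9.36 at 5 to 10 kb, 9.15 at 10 to 20 kb, 9.92 at 20 to 50 kb, 11.9 at 50 to 100 kb and 12.7 at 100 to 200 kb. Measured from the gene end, the value at 1 to 2 kb was 8.16 (6.71 to 9.82, 111 members), with 13.3 at 50 to 100 kb and 15.4 at 100 to 200 kb. Strong members stood at 1.97 per Mb at 1 to 2 kb (1.30 to 2.87), at 1.51 and 1.41 in the next stretches to 5 and 10 kb, and at 2.60 at 50 to 100 kb (2.28 to 2.95). The interval at 1 to 2 kb overlapped those of all these stretches.

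**Figure D3:**
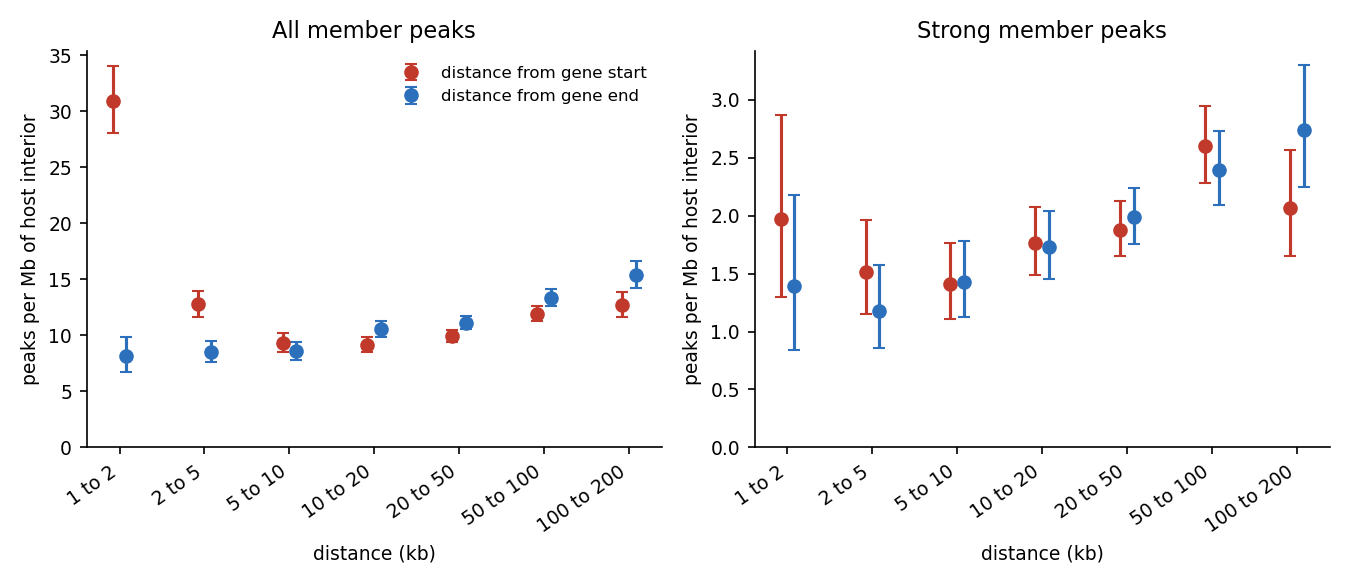
Density of all members (left) and strong members (right), in peaks per Mb of host interior, by distance in kb from the gene start (red) and from the gene end (blue), with exact 95% Poisson intervals. All members stand at 31.0 per Mb 1 to 2 kb behind the start against 8.16 at the same distance before the end, whereas the intervals of strong members overlap there.

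The side of the gene start held 2883 of the 5090 members, or 56.6% (55.3 to 58.0), while 50.0% of host interior lay on that side. Without members within 1 kb of an inner start it held 2354 of 4478, or 52.6% (51.1 to 54.0), beside 49.6% of the sequence left, and of strong members it held 473 of 881, or 53.7% (50.3 to 57.0). Eligible genes of 20 kb or longer and known strand, with or without a member, were cut into 10 equal stretches. The first held 19.2 members per Mb and the other 9 held 9.24 to 11.6. In the 1 to 2 kb behind the gene start, the density of 31.0 per Mb became 18.3 (15.97 to 20.9) once members within 1 kb of an inner protein-coding start and the sequence around those starts were both set aside. At the same distance before the gene end it was then 8.01 (6.57 to 9.67).

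Host interior held 3376 annotated inner starts of protein-coding genes, and 526 of them (15.6%, 14.4 to 16.8) had a summit within 500 bp. The share was 20.9% (20.3 to 21.5) of the 17164 starts within 1 kb of gene ends. For starts of long non-coding RNAs (lncRNAs) it was 5.62% of 1958 in host interior (4.64 to 6.73), against 3.94% of 7283 between protein-coding genes (3.51 to 4.41). Members within 1 kb of an inner protein-coding start numbered 621 (9.39%), with a median fold of 5.49 and 7.41% strong (5.47 to 9.76). A further 96 (1.45%) were that close to an lncRNA start alone, with a median fold of 6.15 and 14.6% strong. The remaining 5893 (89.2%) were over 1 kb from every listed start, and they include members in hosts whose own starts are not listed. Their median fold was 6.52 (6.36 to 6.60), and 18.6% of them were strong (17.7 to 19.7). Members at inner starts thus had the same median fold, 5.49, as the peaks at gene ends. By distance from an inner start, 6.70% were strong within 100 bp, 5.23% from there to 250 bp, 10.5% to 500 bp, 8.15% to 1000 bp and 7.67% to 2000 bp, with overlapping intervals, and 16.2% (12.8 to 20.02) from there to 5000 bp.

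The member with the highest −log10 q (351.7) lay in Nrde2, a gene of an RNA surveillance protein, at chr12:100127447-100128510, 2.31 kb from the 3′ end of the gene, with a 65.3-fold enrichment, and it was the only member there. The highest fold, 86.2, was in Mipep, which encodes a mitochondrial peptidase, at chr14:60856229-60857284, 72.2 kb from its start. Smtnl2, a relative of the smooth muscle gene smoothelin, held a 70.0-fold member at chr11:72396575-72397594. Scara5, the gene of a ferritin receptor, held one of 71.3-fold at chr14:65724616-65725358, with 3 strong members of 5. Kdm8, a hydroxylase gene, had a single member of 64.0-fold. Cd40, a receptor gene of immune cells, held a 65.5-fold member among 2, both strong.

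Prxl2a, a gene of a peroxiredoxin-like protein, held a 59.9-fold member at chr14:41007507-41008198 that lay 429 bp from an inner start, and it was the highest of the 621 members near inner starts. Denn2b, a gene of a Rab activator, held a 60.5-fold member 141.6 kb from its start, beside 3 others with none strong. Lpar3, a lysophosphatidic acid receptor gene, held a 48.9-fold member among 4, 3 of them strong. Galnt2, an enzyme gene of O-glycosylation, held a 41.6-fold member among 6. The 12 hosts of the highest members, which their top peaks chose, had 1 to 6 members each, with a median of 3, whereas 1916 of all 3305 hosts had a single one.

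The 10 hosts with the most members, chosen for that number, had top members from 11.3-fold to 37.0-fold. Tbx5 itself held 24 members over 88.7 kb, 5 of them strong, with folds from 3.53 to 22.0 and a median of 5.47. Hoxb3, a homeobox gene whose annotated span covers much of the Hoxb cluster, held 24 members over 40.8 kb, 6 of them strong, and Hoxa3 of the Hoxa cluster held 16 over 44.0 kb, 3 of them strong. Peaks in these spans also lie beside the shorter Hox genes that overlap them, so the assignment to Hoxb3 and Hoxa3 says where the annotation ends and not which Hox gene is meant.

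Ptch1, which encodes the hedgehog receptor and is itself a standard hedgehog target, held 18 members over 65.1 kb, 7 of them strong. Ror2, a receptor gene of non-canonical Wnt signals, held 17 over 176.8 kb with a highest fold of 37.0 at chr13:53262360-53263260. Arid5b, a chromatin regulator gene, also held 17, with a highest fold of 31.4 at chr10:68135303-68136008. Ebf2, a transcription factor gene, held 16 over 197.7 kb and no strong one, with a highest fold of 11.3. Zeb2, a repressor gene known from epithelial-mesenchymal transition, held 15, and Bcor, a Polycomb corepressor gene on chromosome X, held 14 with 4 strong. Per 10 kb of gene, the densest hosts with 4 or more members were Zfp503 with 8.86, Hoxb3 with 5.88, Tgif1 with 5.36, Nr2f2 with 4.73, Hoxa3 with 3.64, Scarf2 with 3.63, Smad7 with 3.50 and Midn with 3.24. Tgif1 and Smad7 both encode inhibitors of TGF-beta signalling, and Nr2f2 encodes the nuclear receptor COUP-TFII. Nr2f2 held 7 members in 14.8 kb, and 1 of them, at 16.2-fold, was strong.

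**Figure D4:**
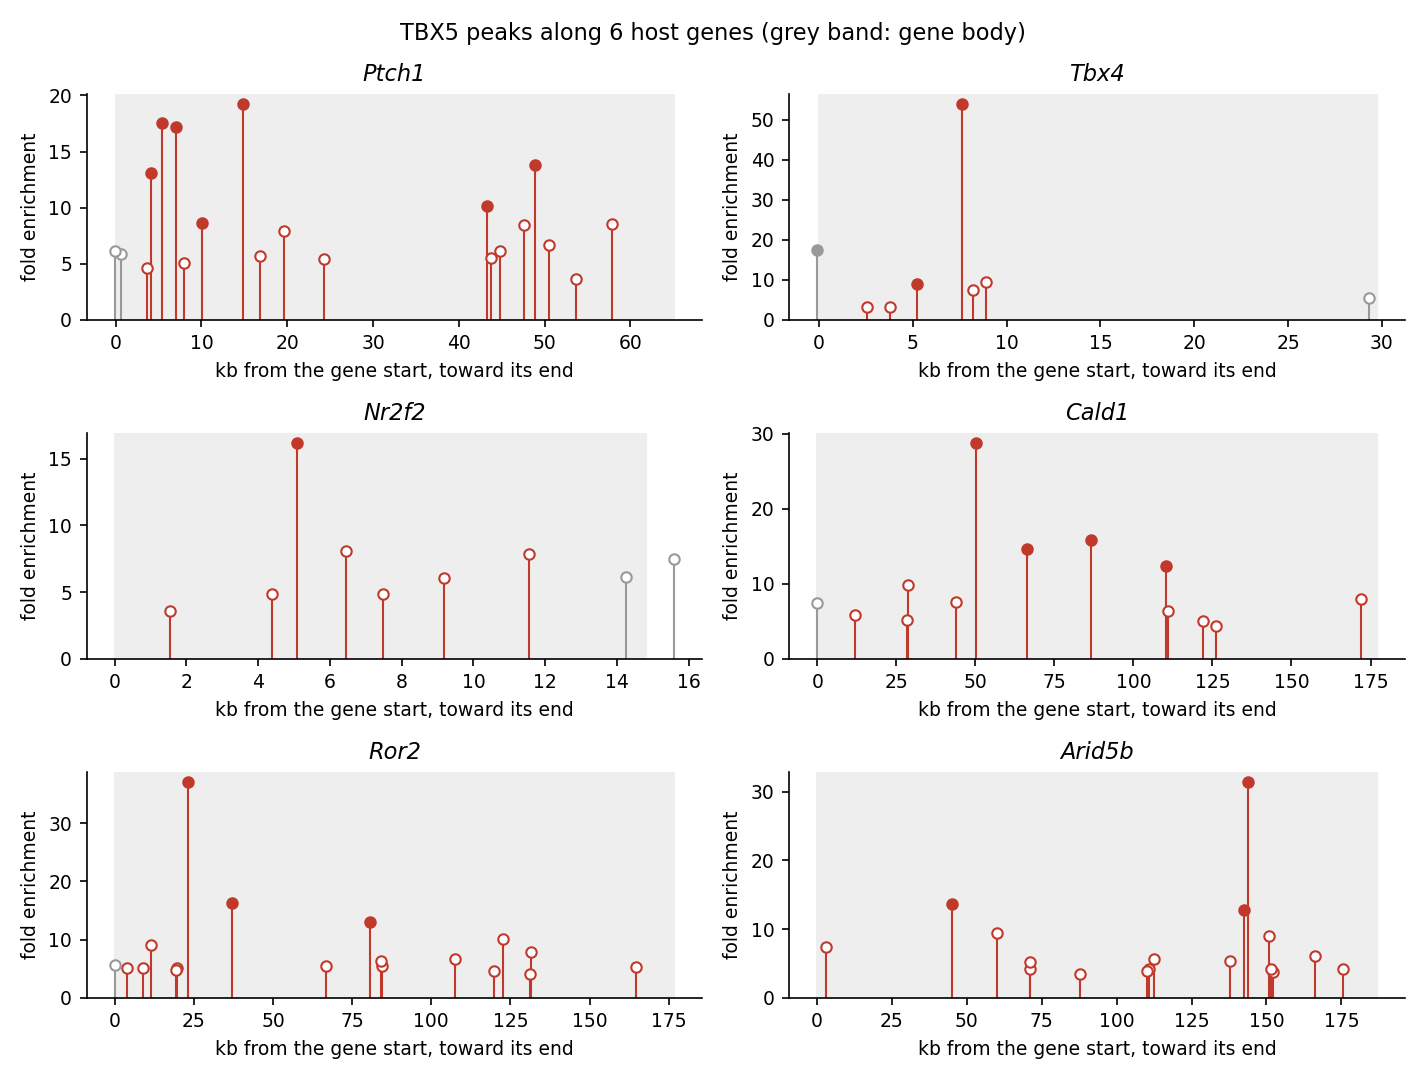
Fold enrichment (vertical axes, each from 0) of peaks along 6 hosts, by distance in kb from the gene start toward its end. Red marks members, grey marks peaks at gene ends, filled points are strong, and the grey band is the gene. Ptch1 has strong members in 2 stretches, Tbx4 and Nr2f2 have 1 member above 10-fold each, of 53.8-fold and 16.2-fold, and Arid5b, Ror2 and Cald1 a few high members among many lower ones.

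The plotted hosts show how members vary within 1 gene. In Ptch1, on the minus strand of chr13:63508328-63573460, 5 strong members of 8.67-fold to 19.2-fold stood 4.1 to 14.8 kb behind the start, and the other 2 strong members, of 10.1-fold and 13.8-fold, stood 43.3 and 48.9 kb behind it. No member lay between 24.2 and 43.3 kb. Both peaks at its start, at 5.88-fold and 6.10-fold, were lower than all 7 strong members. Tbx4, the T-box gene next to Tbx2, had its 6 members between 2.6 and 8.9 kb behind the start in a gene of 29.7 kb. Of these, the member at chr11:85893572-85894394 reached 53.8-fold, while the others ranged from 3.17-fold to 9.33-fold, and the peak at the start reached 17.4-fold. In Ror2 the 37.0-fold member stood 23.2 kb behind the start, and the next highest were 16.2-fold at 37.0 kb and 13.0-fold at 80.8 kb. In Arid5b the 31.4-fold member stood 143.8 kb behind the start, with one of 12.7-fold beside it at 142.7 kb. In most of these hosts, then, 1 member stood well above the rest, and in Ptch1 several were of like height.

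Signalling genes were described by lists of pathway members, each beside a share for genes of the same lengths, which is the mean of the host shares of the 5 length classes weighted to the list. The top member of a gene is its member of highest −log10 q. Among the 16 eligible hedgehog genes, 11 hosted a member (68.8%, 41.3 to 89.0, same-length share 24.1%) and 4 a strong one (25.0%, 7.27 to 52.4, same-length share 6.66%). Boc, the gene of a hedgehog co-receptor, held 9 members, 3 of them strong, with the highest of 36.3-fold at chr16:44538098-44539034, and 2 further ones of 17.6-fold and 16.3-fold. Sufu, which encodes the cytoplasmic inhibitor of GLI factors, held 2 members with a highest fold of 12.7. Among list genes outside the naming rule and chosen after their values were seen, the signal transducer gene Smo held 2 with a top of 6.0-fold, the effector gene Gli1 held 2 with a top of 6.2-fold, and the ligand antagonist gene Hhip held 1 of 9.9-fold. Shh, the ligand gene, held none. Gli2 and Gli3 are 200 kb or longer and so outside the rule. In host interior of the list there were 55.8 members per Mb, and 34.2 without Ptch1, against 11.5 over all eligible genes.

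Of 23 FGF genes, 15 were hosts (65.2%, 42.7 to 83.6, same-length share 25.4%) and 6 had a strong member (26.1%, 10.2 to 48.4, same-length share 7.04%). Fgf7, a mesenchymal ligand gene, held 3 with a highest fold of 29.1 at 4.9 kb behind its start. Fgf10, the ligand gene of airway branching, held 6 members and no strong one, with the highest −log10 q at 8.93-fold. The receptor genes Fgfr1, Fgfr2 and Fgfr3 held 6, 7 and 2 members, with top folds of 27.3, 9.80 and 14.0, and Fgfr2, the epithelial receptor gene of FGF10, had no strong member. Of 62 Wnt genes, 28 were hosts (45.2%, 32.5 to 58.3, same-length share 25.9%) and 8 had a strong member (12.9%, 5.74 to 23.9, same-length share 7.84%). Beside Ror2, the co-receptor gene Ryk held 3 members, all strong, at 11.8-fold, 28.7-fold and 15.1-fold, and the feedback inhibitor gene Nkd1 held 6 with a top of 24.7-fold. Wnt2, a ligand gene of lung mesenchyme, held 3 with a top of 6.67-fold, 1.01 kb behind its start.

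Of 44 BMP and TGF-beta genes, 21 were hosts (47.7%, 32.5 to 63.3, same-length share 26.6%) and 8 had a strong member (18.2%, 8.19 to 32.7, same-length share 7.80%). Ltbp2 and Ltbp4, genes of matrix proteins of the latent TGF-beta binding family, had top members of 30.0-fold and 19.2-fold. Tgfbr3, a co-receptor gene, held 13 members with 3 strong and a top of 18.4-fold. Smad7 held 10 members with 1 strong, at 13.1-fold. Bmp4, a ligand gene only 7.14 kb long, held 2 members of at most 5.68-fold. Of 20 retinoic acid genes, 12 were hosts (exact interval of the share 36.1 to 80.9%, same-length share 21.9%) and 4 had a strong member (5.73 to 43.7%, same-length share 6.45%). Aldh1a2, which encodes the retinoic acid producing enzyme of the embryo, held 5 members, with the highest of 36.9-fold at chr9:71262716-71263111, 47.1 kb behind its start, and 15.5-fold for the other strong one. Rxra, a receptor gene, held 4 with a top of 14.1-fold.

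Of 16 genes of the PDGF, IGF and growth hormone axis, 11 were hosts (68.8%, 41.3 to 89.0, same-length share 25.7%) and 4 had a strong member (25.0%, 7.27 to 52.4, same-length share 7.36%). Igf1, a growth factor gene, held 4 with a top of 26.3-fold at chr10:87871999-87872564. Pdgfrb, the PDGF receptor gene of pericytes, held 2, both strong, at 19.4-fold and 9.59-fold, and Igf2r, the clearance receptor gene of IGF2, held 6 with 2 strong. Of 29 Notch and Hippo genes, 14 were hosts (48.3%, 29.5 to 67.5, same-length share 24.2%) and 5 had a strong member (17.2%, 5.85 to 35.8, same-length share 7.21%). For strong members the intervals of the Wnt, retinoic acid, PDGF and Notch lists include the same-length share. The Hippo effector genes Wwtr1 and Yap1 held 4 and 1, with top folds of 35.3 and 11.8, and Vgll4, a gene of a TEAD cofactor that competes with YAP, held 6 with 3 strong and a top of 19.5-fold.

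Of 33 mesenchymal transcription factor genes, 16 were hosts (48.5%, 30.8 to 66.5, same-length share 16.02%) and 9 had a strong member (27.3%, 13.3 to 45.5, same-length share 4.42%). With 91.0 members per Mb (73.4 to 111.5), and 73.8 without Tbx5, the list had the highest density of the 20. Tbx2 and Tbx3, T-box repressor genes, held 2 and 4 members with top folds of 6.88 and 10.5. Meis1, a homeobox gene, and Nfix, a nuclear factor I gene, held 7 and 6 with 2 strong each. Foxf1, the forkhead gene of lung mesenchyme, is 3.77 kb long and held none, though 1 peak lay at its ends. Of 32 corepressor and remodeller genes, 20 were hosts (62.5%, 43.7 to 78.9, same-length share 34.1%), and the remodeller gene Smarca2 held 8 with a top of 20.3-fold and the deacetylase gene Hdac7 held 2 with a top of 15.7-fold.

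**Figure D5:**
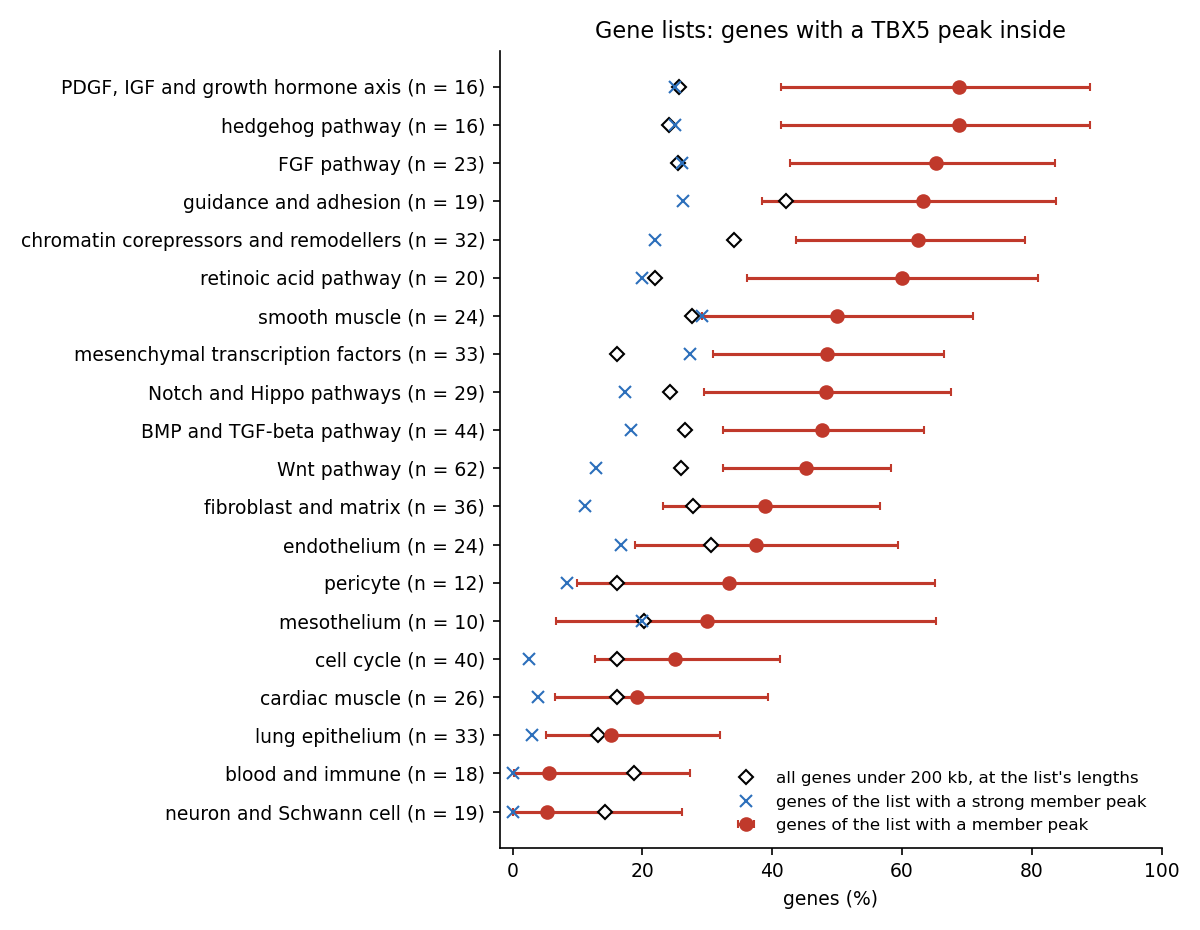
Share of eligible genes (%) with a member, in red with exact 95% binomial intervals, and with a strong member, blue crosses, for 20 gene lists, beside the share of all eligible genes at the lengths of the list, open diamonds. The pathway lists from PDGF to Wnt lie above their diamonds, lung epithelium and cardiac muscle lie near them, and blood and neuron lists lie below.

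Marker lists of cell types were described by the same measure, with no test between lists. Among 24 smooth muscle genes, 12 were hosts (50.0%, 29.1 to 70.9, same-length share 27.6%) and 7 had a strong member (29.2%, 12.6 to 51.1, same-length share 8.84%). Itga8, an integrin gene of mesenchymal and muscle cells, held 9 members with a top of 40.1-fold at chr2:12109302-12109754, only 2.84 kb from its 3′ end. Cald1, the caldesmon gene, held 12 members with 4 strong, the highest 28.7-fold at 50.1 kb behind its start. Cnn2, a calponin gene, held 1 of 17.3-fold. Among list genes outside the naming rule and chosen after their values were seen, the contractile genes Acta2, Cnn1, Myh11 and Tagln held none. Among 36 fibroblast and matrix genes, 14 were hosts (38.9%, 23.1 to 56.5, same-length share 27.8%) and 4 had a strong member (11.1%, 3.11 to 26.1, same-length share 8.16%). Col5a2, a fibrillar collagen gene, had a top of 36.8-fold, Nid1, the nidogen gene, 25.8-fold, and Tnc, the tenascin C gene, 14.3-fold. The matrix genes Col1a1, Col1a2, Eln and Fn1, also chosen after their values were seen, held none. For matrix genes both intervals include the same-length share, and so do the intervals of the share of hosts in the other cell type lists below.

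Among 33 lung epithelium genes, 5 were hosts (15.2%, 5.11 to 31.9, same-length share 13.2%) and 1 had a strong member, Etv5, an FGF-responsive factor gene also present in the FGF list, at 15.1-fold. Nkx2-1, the lung epithelial homeobox gene, held none. Elf5 and Pdpn, genes of distal tip and flat alveolar cells, had tops of 8.75-fold and 8.63-fold. Among 24 endothelium genes, 9 were hosts (37.5%, 18.8 to 59.4, same-length share 30.6%), with a top of 22.1-fold in Tek and 17.6-fold in Flt1, both receptor genes, and 15.9-fold in Prox1, the lymphatic homeobox gene. Of 12 pericyte genes 4 were hosts (33.3%, 9.92 to 65.1, same-length share 16.1%), and of 10 mesothelium genes 3 were (6.67 to 65.2%, same-length share 20.2%), Upk1b with a 31.8-fold member, Wt1 with one of 6.01-fold, and Aldh1a2. Of 19 neuron and Schwann cell genes only Dbh was a host, at 4.90-fold (5.26%, 0.133 to 26.0, same-length share 14.3%), and of 18 blood genes only Ptprc, at 7.18-fold (5.56%, 0.141 to 27.3, same-length share 18.7%).

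Because the source field names heart for 2 of the 3 libraries, genes of cardiac muscle were set beside the lung lists. Of 26 such genes, 5 were hosts (19.2%, 6.55 to 39.4, same-length share 16.1%) and 1 had a strong member, Gja5, the connexin 40 gene of atrium, conduction system and arteries, with 3 members and a top of 33.0-fold at chr3:97039580-97040149. Mef2c and Gata4, factor genes that are also active outside muscle, had tops of 11.3-fold and 5.88-fold. Peaks do not measure RNA, so the tissue of the libraries could not be read from the members. Genes of guidance and adhesion were hosts in 12 of 19 (63.2%, 38.4 to 83.7, same-length share 42.1%), led by the plexin gene Plxnd1 with a 41.4-fold member at chr6:115956714-115957691, Ephb2 with 24.1-fold and Plxna2 with 24.0-fold. Cell cycle genes were hosts in 10 of 40 (25.0%, 12.7 to 41.2, same-length share 16.03%), and only Ccne2, a cyclin gene, had a strong member, at 10.2-fold, with Mki67 and Ccnd3 at 9.02-fold and 7.82-fold.

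Some members lay beside microRNA genes within their hosts. Of 476 microRNA hairpins in host interior, 19 had a member within 1 kb (3.99%, 2.42 to 6.16), and 2.14% of host interior lay that close to a member. The genes described here were chosen after their values were seen. Both hairpins of the miR-199 family in host interior with a member nearby sit inside dynamin genes on the strand opposite to the host. Mir199b, at chr2:32318460-32318569 on the plus strand inside Dnm1, had a strong member at chr2:32317871-32318389 with a 21.6-fold enrichment, its summit 261 bp before the hairpin. Mir199a-1, at chr9:21496495-21496564 on the minus strand inside Dnm2, had a strong member at chr9:21496753-21497035 of 8.78-fold, 330 bp before the hairpin. Mature sequences are given 5′ to 3′ from RefSeq, with the seed, bases 2 to 8, in capitals.
miR-199a-3p: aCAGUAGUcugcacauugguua
miR-199b-3p: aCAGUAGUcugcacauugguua
miR-199a-5p: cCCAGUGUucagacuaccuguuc
miR-10a-5p: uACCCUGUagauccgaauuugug
The 3p products of the pair are the same and share the seed CAGUAGU, whereas the 5p arm of Mir199a-1 has the seed CCAGUGU. miR-199 is known as a product of mesenchymal cells. Mir10a, which lies within the span of Hoxb3 and carries the seed ACCCUGU, had a member of 5.05-fold at 440 bp. Within 1 kb of an end of any non-coding gene there were 329 members (4.98%, 4.47 to 5.53), and 440 (6.66%) lay inside an lncRNA gene. No share of all peaks or of host interior was computed beside these 2 counts, so they do not tell whether members favour such places.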

How the data were processed

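TBX5 ChIP-seq of whole CD-1 mouse lungs gave 1 deposited list of peaks for 2 ChIP libraries and 1 input library. Per the submitters' processing notes, Bowtie2, SAMtools and MACS2 were used with build mm10. The sources used here give no versions or settings, and do not say whether libraries were merged or the input was the control. If libraries were merged, a peak may come from 1 of them, and a fold over local background moves with depth, which is unknown.

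The deposited columns, read from their layout and values since the list has no header, hold a score, a fold enrichment (a ratio), the −log10 of a q-value, and the summit offset in bp, all as the authors' caller gave them. Fold and −log10 q served to describe peaks and order them inside this list. Of the members, 88.8% shared both values with another member, so ranks between tied peaks carry no information.

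Genes, starts and microRNAs came from RefSeq tables of GRCm38.p6. Strand came from the start table, which lists 14403 of the 18012 eligible genes. Host interior is sequence inside protein-coding genes that are all under 200 kb and over 1 kb from every gene end. Intervals are exact 95% binomial or Poisson intervals (Python 3.11.15, numpy 2.4.6, pandas 2.3.3, scipy 1.17.1). Exons, introns and motifs at members away from start windows were not analysed here, since no genome sequence was used.

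Members and gene lists were chosen with earlier results of these data known. The 20 lists held 594 symbols, all matched, 11 of them in more than 1 list. Named genes were the hosts of the 12 highest members, the 10 hosts with the most members, the 8 densest with 4 or more, the 3 hosts of each list with the highest member, and 25 genes always given, 92 in all, of which 83 hosted a member and 6 were 200 kb or longer. Among those always given were Tbx5, Tbx4, Tbx2, Tbx3, Aldh1a2, Ptch1, Gli2, Gli3, Boc, Fgfr2, Fgf10, Wnt2, Bmp4, Foxf1, Foxp1, Meis1, Tgfbr3, Ghr, Ror1, Cald1, Itga8, Col5a2, Nkx2-1 and Shh, and 3 of the named genes are not reported here. Alternatives tried were other distances from gene ends, other host lengths, all annotated gene ends, 1 host under the limit, peak midpoints, autosomes only, the upper part of the list and other definitions of strong. Lists without their richest host, same-length shares and the split by inner starts were added after the data were seen.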

Additional observations from a re-analysis of the deposited data

How the results depend on the processing

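Of 72 recomputed values under 12 settings, 30 medians, shares and densities stayed within the counting interval of the value reported, 9 numbers of members stayed within 1.5 times the number reported, and 33 values moved further. The cause was not tested. With members over 500 bp from gene ends in place of 1 kb, the median fold was 6.19, strong members 16.6%, density 12.3 per Mb, eligible genes with a member 19.7%, members sharing a host 70.0% and members on the side of the gene start 59.1%. Over 2 kb, the median fold was 6.50, strong members 18.5%, density 11.1 per Mb, genes with a member 17.6% and the side of the start 54.0%. Over 5 kb, the median fold was 6.60, strong members 19.3%, density 11.2 per Mb, members sharing a host 74.0% and the side of the start 52.2%. With hosts under 150 kb the density was 11.1 per Mb, genes with a member 17.0% and members sharing a host 67.3%, and with hosts under 250 kb these were 12.0 per Mb, 19.1% and 74.4%. Density was 11.3 per Mb over 1 kb from the ends of all annotated genes and 11.9 on autosomes. In the 14191 peaks with the highest −log10 q, which by definition include all 5000 strong peaks, there were 3340 members. These had a median fold of 9.21, 34.7% strong, 5.87 per Mb, 11.4% of genes with a member, 59.6% sharing a host and 54.8% on the side of the start. Strong members made up 3.19% if strong meant the 1000 highest and 20.9% if it meant 10-fold or more. Peak midpoints and a single host under 200 kb moved none of the 7 values they were run on. No paired analysis was possible because the list gives no value per library, and no library could be left out for the same reason. Depth is unknown, so whether a gene without a member had binding below detection could not be told.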

Other observations

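Across the 19 autosomes the density of members ran from 9.63 per Mb of host interior on chromosome 1 to 15.6 on chromosome 18. All 19 were above the 4.95 of chromosome X, where Bcor alone held 14 of the 118 members. No explanation of this difference was tested.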
